A study of Mus musculus with 7 samples.

Results

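Fos, Fosb, Jun, Junb, Jund, Atf3, Egr1, Klf6 and Ier2 were followed through the cells of 7 mouse malignant peripheral nerve sheath tumors (MPNSTs). They were chosen by gene symbol, as AP-1 subunits and immediate early genes, and all 9 were among the 33696 genes of the count matrices. The tumors were subcutaneous allografts of 1 MPNST cell line, JW23.3, which carries an Nf1 mutation, grown from 5000000 implanted cells in the flanks of female wild-type C57/B6 mice that were 5 to 6 weeks old. The 4 irradiated tumors received 5 daily fractions of 2 Gy from day 7 through shielding that left only the tumor exposed, the 3 control tumors received none, and all 7 were taken at day 21. Each tumor gave 1 library of single-cell RNA-seq by 3′ capture, in which a unique molecular identifier (UMI) counts 1 transcript whatever its length, so that levels are per transcript and can be compared between genes. Only this single line was grafted, and every tumor was minced and held with papain for 45 minutes at 37 °C before capture. Early response genes induced in the tumor and during that step cannot be told apart.

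AP-1 is a transcription factor built as a pair of leucine zipper proteins, with FOS family subunits able to bind DNA only beside a JUN family partner. Many growth factor, stress and inflammatory signals switch these genes on within minutes and without new protein synthesis, and their messages are short lived. In tumors the genes are best known as readouts of MAP kinase signaling in malignant cells and of activation in myeloid cells, and they are also known to be induced by warm enzymatic dissociation of tissue.

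The upstream sequence is shown because these genes are known to be switched on through promoter elements, and no relation of a motif to the values was tested. For 7 members the 250 bases before the transcription start were read from RefSeq on the mouse build GRCm38.p6. The core TGACG of the cyclic AMP response element, searched on both strands, was in 4 of these 7 (Fos, Fosb, Junb and Atf3), against 17.8% of 32851 promoters of the same length. The AP-1-like site TGACNTCA, also on both strands, was in Jun and Klf6, 2 of 7, against 7.49% of promoters, and it overlaps TGACG only where N is G. The consensus AP-1 site TGANTCA was in 0 of 7, against 6.75% of promoters. The sequences that hold a match are shown for the 4 members with TGACG and for Jun, written 5′ to 3′ on the gene's own strand with the match in capitals and the start site just after the last base.
Fos (chr12:85473640-85473889, plus strand): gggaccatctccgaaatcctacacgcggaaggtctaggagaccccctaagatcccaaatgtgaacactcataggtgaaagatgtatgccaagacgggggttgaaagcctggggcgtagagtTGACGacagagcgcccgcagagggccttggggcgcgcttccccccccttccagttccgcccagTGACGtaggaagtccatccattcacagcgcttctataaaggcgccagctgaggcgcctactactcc
Fosb (chr7:19310046-19310295, minus strand): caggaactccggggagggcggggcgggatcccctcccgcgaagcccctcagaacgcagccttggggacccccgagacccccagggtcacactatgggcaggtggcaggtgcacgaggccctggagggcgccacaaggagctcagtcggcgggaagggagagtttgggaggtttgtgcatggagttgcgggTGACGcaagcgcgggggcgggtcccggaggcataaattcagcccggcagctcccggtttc
Junb (chr8:84978749-84978998, minus strand): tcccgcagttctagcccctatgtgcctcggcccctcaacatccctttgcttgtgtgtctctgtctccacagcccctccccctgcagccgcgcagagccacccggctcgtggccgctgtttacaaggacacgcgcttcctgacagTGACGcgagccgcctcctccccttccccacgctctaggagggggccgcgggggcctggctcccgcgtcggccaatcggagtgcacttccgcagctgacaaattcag
Atf3 (chr1:191183334-191183583, minus strand): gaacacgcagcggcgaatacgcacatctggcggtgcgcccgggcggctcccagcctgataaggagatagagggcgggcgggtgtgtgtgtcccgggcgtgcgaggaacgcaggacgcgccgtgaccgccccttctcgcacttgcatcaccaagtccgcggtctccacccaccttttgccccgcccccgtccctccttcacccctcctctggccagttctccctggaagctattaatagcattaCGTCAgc
Jun (chr4:95052223-95052472, minus strand): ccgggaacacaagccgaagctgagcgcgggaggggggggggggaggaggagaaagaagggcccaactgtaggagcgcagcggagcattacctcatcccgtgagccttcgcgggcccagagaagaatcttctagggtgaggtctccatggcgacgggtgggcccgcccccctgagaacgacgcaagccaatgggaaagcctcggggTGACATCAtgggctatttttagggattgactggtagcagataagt
Fos held this core at 129 and 66 bases before the start, Fosb at 60, Junb at 106 and Atf3 at 7, where it lies on the opposite strand. The longer site stood 45 bases before the start in Jun and 119 before it in Klf6. A match is a description of the letters and not a shown binding site.

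The 7 libraries held 39537 cells and 646559899 UMIs, with library medians of 6058.5 UMIs per cell (control 2) to 17930.5 (control 1), and 34300 cells passed a filter at 3 median absolute deviations. Pairs of libraries shared 3 to 19 barcodes, 0.0808% to 0.397% of the smaller library. Cells were classed by gates on fixed marker lists, which gave 15467 MPNST-like, 11573 macrophage-like, 1397 T/NK-like, 461 endothelial-like, 213 fibroblast-like, 201 dendritic-like and 172 pericyte-like cells. Another 4191 cells passed no gate and 484 passed several. Xist, expressed by cells of the female host and not by the male tumor line, was part of 3 gates. MPNST-like cells were allowed at most 1 Xist UMI, and fibroblast-like and pericyte-like cells needed 2 or more. Of the classes gated without it, 90.9% of macrophage-like and 90.1% of T/NK-like cells had an Xist UMI. The first 3 classes had at least 120 cells in every tumor and were tested by edgeR's quasi-likelihood method on UMIs summed per tumor. The other 4 had fewer than 20 cells in some tumor and are described by their values, with a fit of all 7 classes added after the data had been seen.

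Among the 7 classes, Fos, Fosb, Junb and Atf3 had their highest mean in macrophage-like cells, Jund and Klf6 in T/NK-like, Jun in pericyte-like, Ier2 in endothelial-like and Egr1 in fibroblast-like cells, and the lead over the next class was called for Fos, Junb and Atf3 (edgeR). Levels are given as UMIs of a gene per 1000000 UMIs of its class (CPM), so they describe the share of a class's RNA and not molecules per cell. Between MPNST-like and macrophage-like cells, 1 of 9 members was higher and 7 were lower in MPNST-like cells, where 47.5% of 15044 genes tested were higher and 36.7% lower. The members' median log2 difference was -1.74, against 0.21 over all genes. Against T/NK-like cells, MPNST-like cells had 3 members higher and 3 lower, with 46.8% and 29.6% of all genes, and the members' median was 0.011 against 0.38. Macrophage-like cells had 6 members higher and 0 lower than T/NK-like cells, with 36.1% and 27.5% of all genes, and a median of 1.06 against 0.16.

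**Figure D1:**
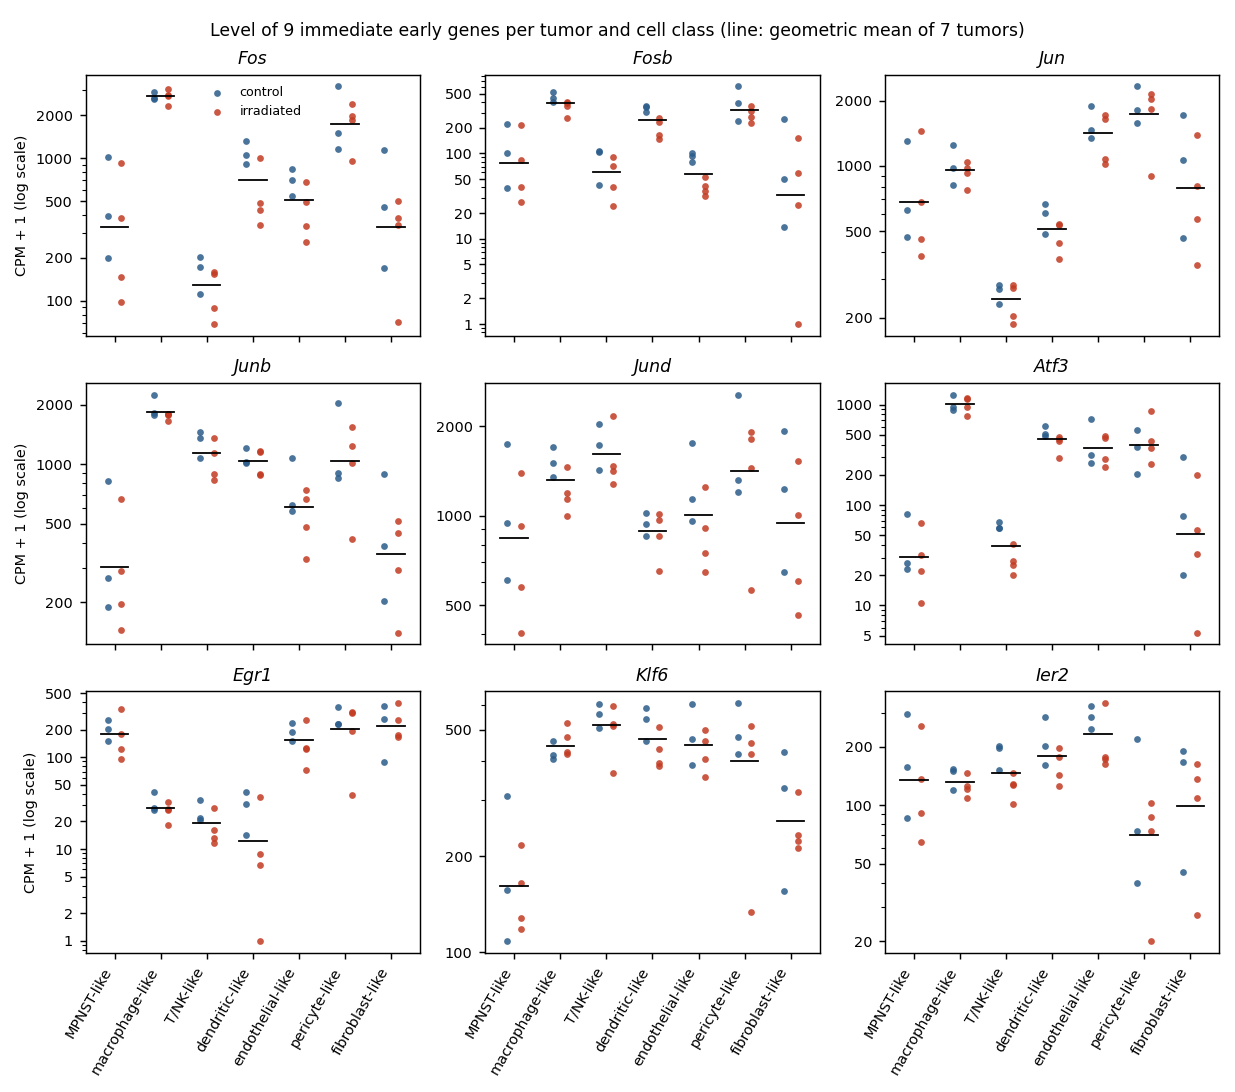
Level of each member in each cell class, as CPM + 1 on a log axis. Each point is 1 tumor (blue, 3 control; red, 4 irradiated) and each black line is the geometric mean of the 7 tumors. Fos and Atf3 peak in macrophage-like cells, Egr1 is low in the 3 immune classes, and the MPNST-like points of a gene spread far more than its macrophage-like points, from 96.5 to 1022 CPM for Fos against 2324 to 3037.

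Fos, the founding FOS family subunit, stood at 2645, 2928 and 2596 CPM in macrophage-like cells of control tumors 1 to 3 and at 2736, 2773, 2324 and 3037 CPM in irradiated tumors 1 to 4. In MPNST-like cells it stood at 198, 394 and 1022 CPM in the controls and at 381, 930, 147 and 96.5 CPM in the irradiated tumors. Every macrophage-like value lay above every MPNST-like value, and the 2 classes differed by -3.31 ± 0.39 on the log2 scale (SE, n = 7 tumors, MPNST-like against macrophage-like, edgeR adjusted p = 1.3e-06). T/NK-like cells had 67.8 to 202 CPM, and macrophage-like cells were above them by 4.87 ± 0.42 (adjusted p = 7.5e-08). MPNST-like cells were above T/NK-like cells by 1.57 ± 0.38 (adjusted p = 0.00186), although the MPNST-like values of control 1 and irradiated tumors 3 and 4 lay within the T/NK-like range. In the order of the 7 classes, macrophage-like cells were followed by pericyte-like cells, which were lower by a log2 difference of 1.01 ± 0.32 (adjusted p = 0.00518), and these by dendritic-like cells, lower again by 1.15 ± 0.33 (adjusted p = 0.0025). No step between neighbours among dendritic-like, endothelial-like, fibroblast-like and MPNST-like cells was called. Farther apart, dendritic-like cells were above fibroblast-like cells by 1.04 ± 0.33 (adjusted p = 0.00625). T/NK-like cells came last, 1.46 ± 0.33 below MPNST-like cells (adjusted p = 0.000133).

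The share of cells with at least 1 UMI gave the same order once every cell had been thinned to 2000 UMIs, which left out 215 MPNST-like, 889 macrophage-like and 343 T/NK-like cells as too shallow. Of the shallow cells, 63, 633 and 215 came from control tumors. A Fos UMI was then found in 88.3% to 91.3% of macrophage-like cells per tumor, in 12.9% to 62.7% of MPNST-like cells and in 11.9% to 28.5% of T/NK-like cells. Without thinning the ranges were 93.5% to 97.8%, 50.9% to 90.2% and 18.4% to 34.9%, at median depths of 6790, 23622 and 3182 UMIs per cell. No class here is known to lack Fos, so macrophage markers were read as a rough guide to RNA free in the suspension. In T/NK-like cells the 14 macrophage markers summed to 1.79% to 2.78% of their macrophage-like level and Fos stood at 2.92% to 7.79% of its macrophage-like level. In MPNST-like cells the markers were at 0.189% to 0.422% and Fos at 3.18% to 39.4%. Cells of both classes with 8 or more of these markers had been gated out. The T/NK-like gate admits NK cells, and the part of the cells' own RNA in these marker sums was not tested. The part of free RNA in the low T/NK-like level of Fos was not tested.

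Fosb, a FOS family subunit that outlasts Fos after a stimulus through stable isoforms, had a similar order. It averaged 397 ± 83.3 CPM (SD, n = 7) in macrophage-like, 103 ± 81.9 in MPNST-like and 67.5 ± 33.5 in T/NK-like cells. Macrophage-like cells were above MPNST-like cells in every tumor, with a log2 difference of -2.63 ± 0.30 for MPNST-like against macrophage-like (edgeR adjusted p = 9.3e-07). MPNST-like and T/NK-like cells overlapped, with a difference of 0.50 ± 0.33 (adjusted p = 0.184). In the 7-class order, macrophage-like, pericyte-like and dendritic-like cells led, and neither step between these neighbours was called. Macrophage-like cells were nevertheless above dendritic-like cells by 0.84 ± 0.32 (adjusted p = 0.0303). Dendritic-like cells were above MPNST-like cells by 1.72 ± 0.33 (adjusted p = 1.7e-05).

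The JUN family subunits, which pair with themselves or with FOS proteins, each had an order of its own. Jun, the most strongly transactivating of them, stood at 470, 627 and 1298 CPM in MPNST-like cells of the controls and at 684, 1442, 458 and 383 CPM in the irradiated tumors, and at 776 to 1244 CPM in macrophage-like cells. These ranges overlapped and the MPNST-like level was lower by a log2 difference of -0.73 ± 0.26 (adjusted p = 0.0172), a call that ended without TMM factors (-0.44) and without control 1 (-0.63) or control 2 (-0.63). T/NK-like cells had only 186 to 283 CPM, below every MPNST-like value, and MPNST-like cells were higher by 1.60 ± 0.28 (adjusted p = 7.9e-05). Jun was highest in pericyte-like (894 to 2322 CPM) and endothelial-like cells (1017 to 1878 CPM), and the single called step in its order was that from dendritic-like down to T/NK-like cells (1.10 ± 0.25, adjusted p = 0.000282).

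Junb, a subunit that restrains Jun in many settings and is prominent in activated lymphocytes, differed among all 3 classes. It stood in macrophage-like cells at 1655 to 2239 CPM, in T/NK-like cells at 832 to 1459 CPM and in MPNST-like cells at 144 to 817 CPM. These 3 ranges did not overlap. MPNST-like cells were below macrophage-like cells by -2.84 ± 0.28 (adjusted p = 1.2e-07) and below T/NK-like cells by -1.78 ± 0.28 (adjusted p = 2.6e-05). Jund, the subunit that is made constitutively in most cells, stood at 1284 to 2167 CPM in T/NK-like, 995 to 1703 CPM in macrophage-like and 403 to 1742 CPM in MPNST-like cells. The MPNST-like level of Jund was lower than that of either immune class (-0.90 ± 0.20, adjusted p = 0.000571; -0.84 ± 0.21, adjusted p = 0.00139). All 3 of its ranges overlapped, and the other two classes differed by 0.065 ± 0.20 (adjusted p = 0.799). A Jund UMI was found in 49.4% to 85.7% of thinned MPNST-like cells per tumor.

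Atf3, a stress-induced member of the ATF family that dimerizes with JUN proteins and represses many inflammatory genes, had the widest gap between classes. In macrophage-like cells it stood at 956, 1251 and 886 CPM in the controls and at 940, 1174, 769 and 1144 CPM in the irradiated tumors. In MPNST-like cells it stood at 21.8, 25.2 and 80.3 CPM in the controls and at 30.5, 65.8, 21.0 and 9.58 CPM in the irradiated tumors. The difference was -5.36 ± 0.39 on the log2 scale (MPNST-like against macrophage-like, adjusted p = 3.7e-09), and a UMI was found in 59.4% to 73.5% of thinned macrophage-like cells against 1.39% to 12.1% of MPNST-like cells. T/NK-like cells, at 18.9 to 66.8 CPM, did not differ detectably from MPNST-like cells (-0.27 ± 0.41, adjusted p = 0.567). The part of free RNA in this T/NK-like level was not tested. Dendritic-like, pericyte-like and endothelial-like cells lay between, at medians of 478, 377 and 315 CPM, and the step from macrophage-like to dendritic-like cells was 1.41 ± 0.32 (adjusted p = 0.000343).

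Egr1, a zinc finger factor induced through serum response factor and ERK signaling, was higher in MPNST-like than in macrophage-like cells, where Fos was lower. Against T/NK-like cells both genes were higher in either of these classes. It stood at 150, 200 and 256 CPM in MPNST-like cells of the controls and at 179, 337, 122 and 94.7 CPM in those of the irradiated tumors, against 17.1 to 40.6 CPM in macrophage-like cells. Every MPNST-like value was above every macrophage-like value, with a difference of 2.41 ± 0.16 (adjusted p = 2.6e-11), and MPNST-like cells were above T/NK-like cells by 3.34 ± 0.21 (adjusted p = 2.9e-11). Fibroblast-like, pericyte-like, MPNST-like and endothelial-like cells led in that order, and no step between neighbours among them was called. The first and last of these did differ, at -0.61 ± 0.25 for endothelial-like against fibroblast-like cells (adjusted p = 0.0348). Fibroblast-like cells held MPNST markers above their own marker list, and the part of MPNST RNA in their Egr1 level was not tested. The next step, from endothelial-like to macrophage-like cells, was 2.19 ± 0.24 (adjusted p = 7.2e-11). Among thinned cells a UMI was found in 16.5% to 43.1% of MPNST-like and 2.73% to 6.34% of macrophage-like cells.

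Klf6, a zinc finger factor of the Krüppel-like family known for injury responses, was lowest in MPNST-like cells. It had 108 to 309 CPM there, 405 to 526 CPM in macrophage-like cells and 364 to 601 CPM in T/NK-like cells. Both immune classes lay wholly above the MPNST-like range (-1.74 ± 0.19, adjusted p = 1.8e-07, and -1.61 ± 0.20, adjusted p = 9.9e-07). The last 2 steps of its 7-class order were called, from pericyte-like to fibroblast-like (0.66 ± 0.19, adjusted p = 0.00442) and from there to MPNST-like cells (0.74 ± 0.18, adjusted p = 0.000542). Ier2, a small nuclear protein of the early response, was the 1 member with no called difference among the 3 large classes, at means of 154 ± 88.0, 131 ± 17.5 and 149 ± 36.8 CPM (SD, n = 7) in MPNST-like, macrophage-like and T/NK-like cells. Its MPNST-like against macrophage-like difference was -0.22 ± 0.24 (adjusted p = 0.405), and its sign in all 3 contrasts turned without TMM factors (0.073, -0.066 and -0.14). It was highest in endothelial-like cells (162 to 334 CPM), with 0 of 6 steps called. Classes farther apart did differ. Endothelial-like cells were above pericyte-like cells by 1.37 ± 0.30 (adjusted p = 0.000222) and above fibroblast-like cells by 0.97 ± 0.28 (adjusted p = 0.00275). For MPNST-like against endothelial-like cells the difference was -0.72 ± 0.25 (adjusted p = 0.0102). Over all 21 contrasts of the 7 classes, 125 of the members' 189 were called (66.1%), where 60.3% of the contrasts of 10319 genes were called in that fit. Neighbours in an order are its closest classes, and 16 of their 54 steps were called.

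Other AP-1 and early response genes, a list of 34, leaned the same way between MPNST-like and macrophage-like cells, with 6 higher and 25 lower and a median of -2.26. Zfp36, which encodes the mRNA decay factor tristetraprolin, averaged 44.6 CPM in MPNST-like and 993 CPM in macrophage-like cells (-5.19 ± 0.37, adjusted p = 2.7e-09). The matricellular genes Ccn1 and Ccn2, at 507 and 174 CPM in MPNST-like cells, ran the other way, with differences of 6.34 ± 0.38 and 5.97 ± 0.20. Against T/NK-like cells the list split into 11 higher and 15 lower in MPNST-like cells, led by Batf (0.367 against 110 CPM), an AP-1 partner of lymphocytes, by Ccn2 and by the nuclear receptor gene Nr4a3. Macrophage-like cells had 19 of the 34 higher and 6 lower than T/NK-like cells, led by Rhob, Klf4 and Ier3. Of 15 heat shock genes, MPNST-like cells had 8 higher and 3 lower than macrophage-like and 7 higher and 4 lower than T/NK-like cells. The log2 differences of Hspa1a were -7.94 and -6.51 and those of Hspb1 3.28 and 3.70. Macrophage-like cells had 4 heat shock genes higher and 5 lower than T/NK-like cells, with Hspa1a at 1.43 and Dnajb1 at -1.35. Hspa1a has a near-identical copy, Hspa1b, and reads between them may be split uncertainly.

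Scaling mattered for the weakest of these contrasts. Leaving out TMM factors moved the median of all genes by 0.30 (MPNST-like against macrophage-like), -0.062 (MPNST-like against T/NK-like) and -0.36 (macrophage-like against T/NK-like). For macrophage-like against T/NK-like cells the split of calls then turned from 5427 higher and 4133 lower to 3878 and 5511, and with DESeq2 it was 4849 and 5987. For MPNST-like against T/NK-like cells DESeq2 gave 6430 higher and 6256 lower in place of 7039 and 4446. Among members, Jund and Klf6 turned from 0.065 and 0.14 to -0.30 and -0.23 between macrophage-like and T/NK-like cells without TMM factors.

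The 9 members varied together from tumor to tumor in MPNST-like cells, and far less in macrophage-like cells of the same tumors. Control 3 and irradiated 2 were the top 2 tumors for 9 of 9 members in MPNST-like cells, 1 from each group. Irradiated 4 was lowest for 8 of 9. The SD of log2 CPM over the 7 tumors was 1.29 for Fos, at the 99.8th percentile of the 7030 genes that averaged 20 CPM or more, and 1.22 for Fosb, 1.04 for Atf3, 0.95 for Junb, 0.82 for Ier2, 0.75 for Jun and for Jund, 0.62 for Egr1 and 0.54 for Klf6, against a median gene's 0.19. Klf6, the least variable member, was still at the 96.8th percentile. In macrophage-like cells the SD of Fos was 0.13, the lowest of the members and at the 38.9th percentile of 6000 genes, and that of Egr1 was 0.37, the highest and at a percentile of 91.05. There 6 of 9 members varied more than the median gene (0.15). In T/NK-like cells Fosb (0.80) and Atf3 (0.68) varied most and Klf6 (0.24) and Jun (0.25) least, against a median of 0.27 over 6165 genes.

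**Figure D2:**
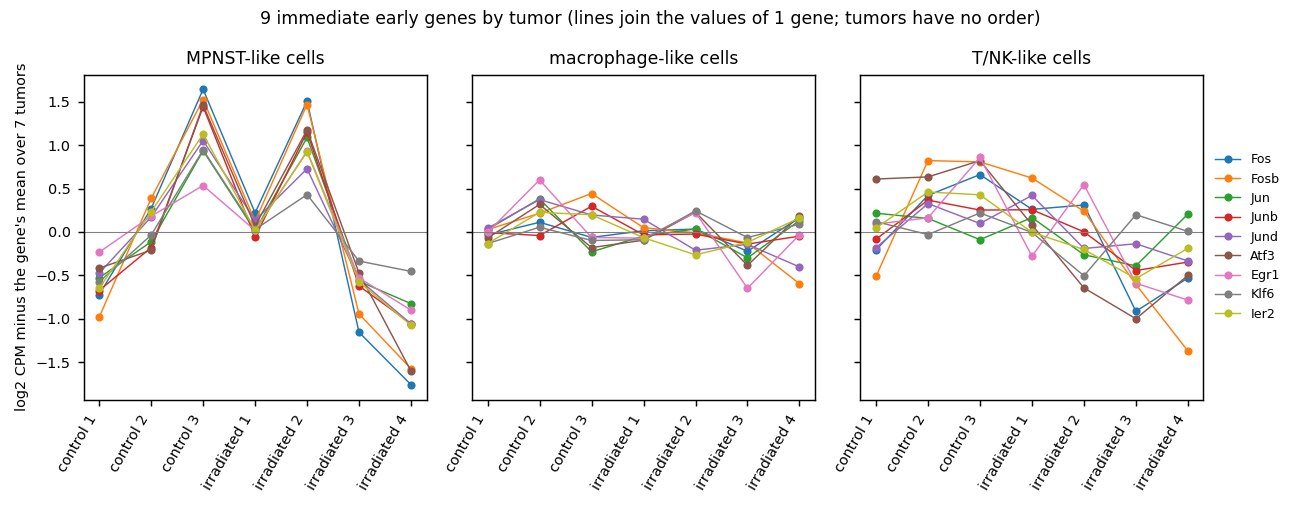
Log2 CPM of each member in each tumor, minus that gene's mean over the 7 tumors, in the 3 large classes. Points are tumors and lines join the values of 1 gene only as a guide, since tumors have no order. In MPNST-like cells control 3 and irradiated 2 stand above the rest and irradiated 4 below for nearly every gene, while macrophage-like cells of the same tumors stay near 0.

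Control 3 was also highest for 8 of 9 members in fibroblast-like and in pericyte-like cells and for 6 of 9 in endothelial-like cells. Irradiated 4 was lowest for 7 and 8 of 9 in fibroblast-like and pericyte-like cells, while in endothelial-like cells irradiated 3 was lowest for 5 and irradiated 4 for 4. Irradiated 2 was among the top 2 tumors for 5, 3 and 0 of 9 members in fibroblast-like, pericyte-like and endothelial-like cells, against 9 of 9 in MPNST-like cells. These classes had 10 to 143 cells per tumor. The 14 MPNST markers summed to 8119 to 16070 CPM in fibroblast-like cells, a range that reached above that of MPNST-like cells (7542 to 9779 CPM). In fibroblast-like cells they also lay above the fibroblast list (2331 to 5023 CPM). They summed to 2612 to 4891 CPM in pericyte-like and to 141 to 639 CPM in endothelial-like cells. The part of MPNST RNA in the values of these classes was not tested. In macrophage-like cells control 2 was highest for 5 of 9 members and irradiated 3 lowest for 5 of 9. These orders are a description of 7 tumors, with no test and no count over all genes.

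Many but not all early response and heat shock genes also varied widely between the tumors in MPNST-like cells. Of the list of 34 other early response genes, 24 averaged 20 CPM or more, and the SD of 16 of these lay above the 90th percentile of all genes. Their highest tumor was control 3 or irradiated 2 for 21 of 24 and their lowest irradiated 4 for 12. Of the 15 heat shock genes, 14 averaged 20 CPM or more, and 5 lay above that percentile. Of these 14, 13 were highest in control 3 or irradiated 2 and 9 lowest in irradiated 4. The share of all genes highest or lowest in these tumors was not counted. Chordc1, with an SD of 0.062, was at the 1.74th percentile. Among the variable genes, chosen after the values had been seen, in MPNST-like cells Dnajb1, an HSP40 cochaperone, had 114, 219 and 542 CPM in controls 1 to 3 and 302, 465, 141 and 79.3 CPM in irradiated 1 to 4, the last being the lowest. Dusp1, the phosphatase that switches off MAP kinases, ran from 31.7 CPM in irradiated 4 to 340 CPM in control 3, and Hspa1b from 234 CPM in irradiated 4 to 1162 CPM in irradiated 2. The mitochondrial share ran from 3.60% in control 3 to 5.02% in control 1, with 3.60% and 4.33% in the 2 tumors high for the members. Median UMIs per MPNST-like cell were 23159 in control 3, 31567 in irradiated 2, the highest of all, and 27734 in irradiated 4, where control 2 had the lowest at 14607. Macrophage markers summed to 41.1 CPM in irradiated 2, their lowest value, and 73.1 CPM in control 3, against at most 97.4 CPM. MPNST markers summed to 9779 CPM in irradiated 2, their highest value, and 7694 CPM in control 3, against 7542 CPM in irradiated 4. The part of dissociation or of stress in the spread was not tested.

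The members also differed from cell to cell. At 2000 UMIs, MPNST-like cells held a UMI of 1.74 members on average in irradiated 4 and of 4.43 in control 3, and 5 or more members were found in 4.41% and 49.9% of them. Macrophage-like cells held 4.97 to 5.42 members on average and 5 or more in 62.6% to 74.2% of cells. T/NK-like cells held 2.66 to 3.39. In control 3, where the MPNST-like cells came closest to macrophage-like cells, 2.31% of MPNST-like cells held none of the 9, against 18.7% in irradiated 4.

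Whether irradiation moved these genes was asked within each class, with the tumor as the replicate. No gene passed the edgeR test in any of the 3 classes, so 0% of 17481, 12764 and 7578 genes were called in MPNST-like, macrophage-like and T/NK-like cells. At an unadjusted p under 0.05 there were 237, 707 and 425 genes, and DESeq2 called 1, 1 and 0. The member estimates leaned lower in irradiated tumors, with 0, 1 and 0 of 9 above 0 and medians of -0.48, -0.18 and -0.52, against 0.0029, -0.0061 and 0.0015 over all genes. None of these differences was larger than the spread between tumors by the test.

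In MPNST-like cells the group means of Fos were 389 ± 382 CPM (SD, n = 4) after irradiation and 538 ± 430 CPM (SD, n = 3) in controls, a difference of -0.56 ± 0.88 (edgeR adjusted p = 1.0). All member ranges overlapped between the groups. The groups did not overlap for 1.36% of genes higher and 0.972% lower after irradiation, and for 0 of 9 members in either direction. The estimates turned on 1 tumor, since without control 3 all 9 became positive, with Fos at 0.40. Without irradiated 2 they ran the other way, to -1.50 for Fos. No batch is labelled. By cell number, depth, genes per cell and mitochondrial share the libraries were put into 2 sets, the first holding controls 2 and 3 and irradiated 1, though they do not fall apart cleanly: 0.489 of the variation stayed within these sets, against 0.544 in the next best arrangement, and genes per cell and mitochondrial share overlapped between them. The first compares 1 irradiated tumor with 2 controls and the second 3 irradiated tumors with 1 control, so neither has replicates on both sides. The 9 member differences ran from -0.83 to -0.34 in the first, which holds control 3, and from 0.067 to 0.63 in the second, which holds irradiated 2.

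**Figure D3:**
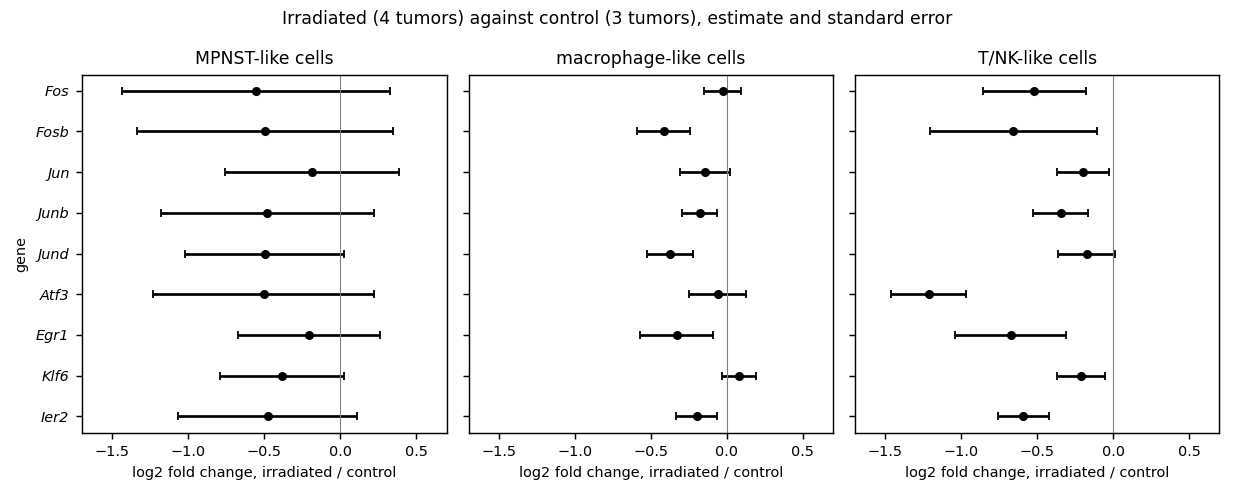
Log2 fold change of each member between 4 irradiated and 3 control tumors in the 3 large classes; points are edgeR estimates, bars their standard errors, and the vertical line is 0. MPNST-like estimates carry errors of 0.41 to 0.88, macrophage-like errors are at most 0.24, and Atf3 in T/NK-like cells, at -1.21, lies farthest from 0.

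Macrophage-like cells gave tighter estimates. Fos averaged 2717 CPM after irradiation and 2723 CPM in controls, a difference of -0.027 ± 0.12 (adjusted p = 0.962), the smallest standard error of Fos among the 3 classes. Fosb was at 402, 386, 356 and 257 CPM after irradiation and at 396, 451 and 529 CPM in controls, overlapping by 1 tumor (-0.42 ± 0.17, adjusted p = 0.818). Jund was at 1456, 1137, 1191 and 995 CPM against 1355, 1703 and 1506 CPM (-0.37 ± 0.15, adjusted p = 0.818). The groups did not overlap for 3.05% of genes higher and 2.28% lower, and for 0 of 9 members. In the library sets, each with 1 tumor on a side, the member differences ran from -0.34 to -0.011 in the first and from -0.29 to 0.22 in the second. In the list of 34, Klf4, a Krüppel-like factor of monocyte differentiation, averaged 295 against 442 CPM with no overlap (-0.61 ± 0.14, adjusted p = 0.818), Nr4a3 50.1 against 74.9 CPM without overlap, and Klf2 526 against 725 CPM.

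T/NK-like cells had the largest member difference. Atf3 was at 40.0, 24.2, 18.9 and 26.7 CPM in irradiated tumors 1 to 4 and at 57.7, 58.7 and 66.8 CPM in controls 1 to 3. Every irradiated value was below every control value, and the log2 difference was -1.21 ± 0.25, with an adjusted p of 0.213 by edgeR that did not pass. Ier2 was at 145, 126, 100 and 127 CPM against 150, 200 and 195 CPM, again without overlap (-0.59 ± 0.17, adjusted p = 0.553). These were 2 of 9 members lower without overlap and 0 of 9 higher, where 2.4% of genes were lower and 4.42% higher without overlap. The Atf3 difference was -1.43 with an adjusted p of 0.0322 without irradiated 1, and its adjusted p was 0.00183 with no filter on low counts, within a range of 0.00183 to 0.866 over its alternatives.

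Other RNA moved with this group difference in T/NK-like cells. The 14 MPNST markers summed to 135, 80.6, 78.9 and 36.6 CPM in T/NK-like cells of the irradiated tumors and to 293, 244 and 219 CPM in those of the controls, with no overlap. Macrophage markers, whose cells hold Atf3 at a mean of 1017 CPM, summed to 418 to 677 CPM and 539 to 733 CPM, with overlap. The fibroblast list ran the other way, at 532, 759, 818 and 878 CPM in the irradiated tumors and 503, 506 and 520 CPM in the controls, also with no overlap. The part of free RNA or of doublets in the Atf3 difference was not tested. Ccn1, a gene of the list of 34 that is abundant in MPNST-like cells, showed 7.27 against 44.6 CPM in T/NK-like cells (-2.77 ± 0.71, adjusted p = 0.576), Rhob 27.9 against 50.5 CPM and Nr4a3 221 against 385 CPM. In the library sets, each with 1 tumor on a side, the member differences ran from -0.79 to 0.21 and from -1.33 to -0.039.

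The list of 34 had 0 called genes in any class, with medians of -0.28, -0.05 and -0.29 in MPNST-like, macrophage-like and T/NK-like cells. In MPNST-like cells its largest differences were those of Btg2 (-0.93 ± 0.75), Dusp1 (-0.65 ± 0.93) and Nr4a2 (-0.58 ± 0.58). Heat shock genes had 0 called and medians of -0.19, -0.08 and -0.15, with Dnajb1 at -0.33 ± 0.74 and Dnajb4 at -0.28 ± 0.26 in MPNST-like cells, Dnajb4 and Hspd1 at -0.29 and -0.18 in macrophage-like cells, and Hsp90ab1 and Dnajb4 at -0.32 and 0.27 in T/NK-like cells. The irradiation effect of Fos in MPNST-like cells minus that in macrophage-like cells was -0.69 ± 0.95 (edgeR interaction, adjusted p = 0.998). The interaction was called for 0% of 17009 genes, with 956 at an unadjusted p under 0.05.

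In endothelial-like, dendritic-like, fibroblast-like and pericyte-like cells the comparison was not tested. Fos averaged 440 ± 187 CPM (SD, n = 4) after irradiation and 695 ± 151 CPM (SD, n = 3) in controls in endothelial-like cells, and 563 ± 294 and 1092 ± 207 CPM in dendritic-like cells. It averaged 323 ± 183 and 591 ± 502 CPM in fibroblast-like cells and 1795 ± 606 and 1955 ± 1080 CPM in pericyte-like cells, with SDs of the same n. The ranges of the groups overlapped in all 4 classes.

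Cells of the same tumor with and without a Fos UMI were compared to ask whether the members go together cell by cell, at 2000 UMIs per cell and with the tumor as a block. Fos itself was left out. In MPNST-like cells, 5703 with and 9549 without Fos, all 8 other members were higher in the cells with Fos, where 11.5% of 12050 genes were higher and 11.8% lower. Each was higher in 7 of 7 tumors. The largest difference was that of Fosb, at 197 CPM with and 49.0 CPM without (2.01 ± 0.07, edgeR adjusted p = 6.9e-34). Junb followed at 629 and 188 CPM (1.74 ± 0.11), then Ier2 at 263 and 88.1 CPM (1.60 ± 0.07) and Atf3 at 59.4 and 19.2 CPM (1.57 ± 0.11). Jun had 1.41 ± 0.07, Egr1 1.27 ± 0.06, Jund 1.24 ± 0.07 and Klf6, the least, 0.76 ± 0.06. The members' median was 1.49, against 0.0038 over all genes.

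As shares of cells, Junb had a UMI in 47.2% of MPNST-like cells with Fos and 24.6% of those without, as means over 7 tumors, Fosb in 25.7% and 7.85%, and Egr1 in 40.0% and 20.3%. The shares with Fos ran from 33.3% to 71.0% for Junb over the tumors, highest in control 3, and the shares without Fos from 19.7% to 34.9%.

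**Figure D4:**
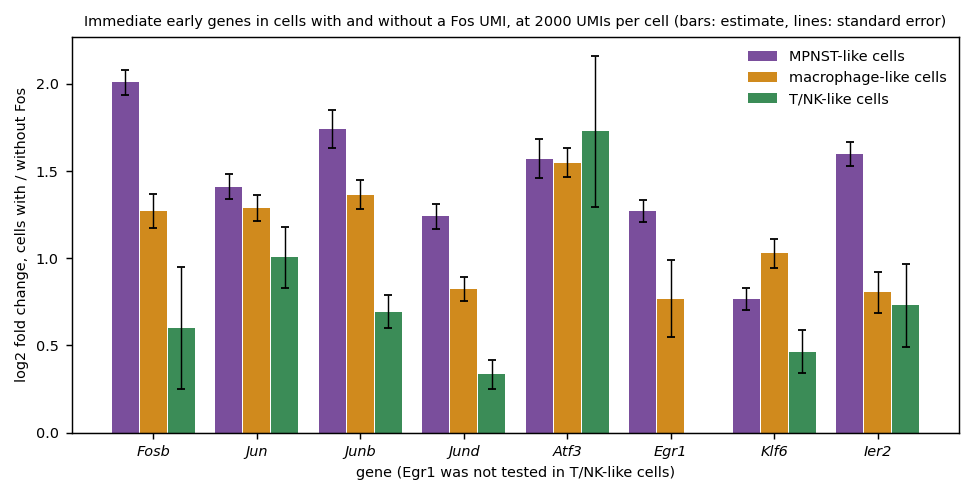
Log2 fold change of the other 8 members between cells with and without a Fos UMI, all cells thinned to 2000 UMIs, in 7 tumors (6 for T/NK-like cells). Bars are edgeR estimates and lines standard errors. MPNST-like bars are highest for Fosb (2.01) and lowest for Klf6 (0.76), macrophage-like bars are highest for Atf3 (1.55), and only Jun and Junb passed the test in T/NK-like cells.

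Macrophage-like cells, 9535 with and 1149 without Fos, also had 8 of 8 members higher with Fos, where 7.45% of 9387 genes were higher and 2.87% lower. Here Atf3 led, at 1199 and 461 CPM (1.55 ± 0.08, adjusted p = 9.7e-21), before Junb (1.37 ± 0.08), Jun (1.29 ± 0.08), Fosb (1.27 ± 0.10), Klf6 (1.03 ± 0.08), Jund (0.82 ± 0.07) and Ier2 (0.80 ± 0.12). Egr1, at 33.0 and 19.7 CPM, was higher in 6 of 7 tumors (0.77 ± 0.22, adjusted p = 0.0144), a call that ended without irradiated 2, irradiated 4 or control 2 (adjusted p = 0.0513, 0.0611 and 0.116, and 0.116 the highest over its alternatives). The members' median was 1.15, against -0.0044 over all genes. In T/NK-like cells, 182 with and 764 without in the 6 tumors that had 20 cells on each side, 0.103% of 3882 genes were higher and 0% lower. The 4 genes called were Jun (1.01 ± 0.17, adjusted p = 0.00131), Junb (0.69 ± 0.09, adjusted p = 2.7e-05), Dusp1 and Dnajb1. Atf3 stood at 1.73 ± 0.43 (adjusted p = 0.0669) there, and Egr1 was too low to be tested. At 1000 UMIs per cell the log2 differences fell to 0.040 for Jun and 0.54 for Junb, and neither passed.

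The genes most like Fos by this measure, outside the members, were ranked by log2 difference among called genes that averaged 20 CPM or more and were higher in every tumor. In MPNST-like cells the first 8 were Dusp1 (2.18 ± 0.07), the antiproliferative gene Btg2 (2.07), Zfp36 (1.97), the cartilage collagen gene Col2a1 (1.80), the nuclear receptor gene Nr4a1 (1.75), AW011738 (1.73), Dnajb1 (1.73) and the Krüppel-like factor gene Klf2 (1.70), all over 7 tumors. In macrophage-like cells they were Dusp1 (1.88 ± 0.08), Zfp36 (1.68), the chemokine gene Ccl3 (1.55), Gm26532 (1.53), Gm57006 (1.47), the activation marker gene Cd83 (1.45), the chemokine gene Ccl4 (1.45) and Rgs1 (1.35), which encodes a brake on G protein signaling. Dusp1 was first in both lists, and its level rose with Fos from 55.2 to 242 CPM in MPNST-like and from 427 to 1415 CPM in macrophage-like cells. In T/NK-like cells Dnajb1 (1.15 ± 0.17) and Dusp1 (1.02 ± 0.18) met the rule.

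Of the other early response genes, 25 of 32 tested were higher and 1 lower in MPNST-like cells with Fos (median 0.98), 20 of 30 higher and 0 lower in macrophage-like cells (median 0.84) and 1 of 18 higher in T/NK-like cells, Dusp1. Of 15 heat shock genes, 10 were higher and 2 lower in MPNST-like cells (median 0.57), led by Dnajb1 and Hspb1 (1.58 ± 0.12). In macrophage-like cells 7 were higher and 0 lower (median 0.24), led by Dnajb1 (1.21 ± 0.16) and Hspa1a (1.02 ± 0.13), and in T/NK-like cells 1 was higher, Dnajb1. The medians over all genes tested were 0.0038, -0.0044 and -0.0057 in the 3 classes.

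Marker levels also differed between cells with and without Fos. In MPNST-like cells the MPNST markers summed to 9916 CPM with and 8547 CPM without Fos, higher in 7 of 7 tumors, the fibroblast list to 937 and 690 CPM, higher in 7 of 7, and macrophage markers to 109 and 83.1 CPM, higher in 6 of 7. In macrophage-like cells the macrophage markers summed to 24153 and 21492 CPM, higher in 7 of 7, the dendritic list to 83.7 and 127 CPM, higher in 0 of 7, the T/NK list to 3.91 and 9.40 CPM, higher in 1 of 7, and mitochondrial genes to 31284 and 38135 CPM, higher in 1 of 7. In T/NK-like cells the macrophage markers summed to 638 and 530 CPM, higher in 5 of 6, and the T/NK list to 8101 and 8811 CPM, higher in 1 of 6. The part of cell state, cell quality or free RNA in the split was not tested.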

How the data were processed

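Single-cell RNA-seq of 7 JW23.3 allografts (4 irradiated, 3 control, labelled as separate biological replicates) was analysed from the filtered matrices of raw UMI counts that the authors deposited. Per the submitters' notes the reads went through Cell Ranger against mm10 and then Seurat 4.4, and the matrix headers name Cell Ranger 8.0.0. Library totals ran from 53496570 UMIs (irradiated 4) to 153044123 (control 1).

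Within each library, cells over 3 median absolute deviations out in UMIs, genes, mitochondrial share or ribosomal protein gene share were dropped. Of 39537 cells, 34300 were kept. No doublet caller was run, and cells that also reached the marker minimum of another class were set aside, with 2 exceptions. Fibroblast-like and pericyte-like cells could also reach the MPNST minimum, and MPNST-like cells could also reach the fibroblast minimum. A cell entered a class with at least 7 of 14 MPNST, 8 of 14 macrophage, 4 of 16 T/NK, 5 of 12 endothelial, 4 of 12 dendritic, 5 of 12 fibroblast or 4 of 8 pericyte markers. MPNST-like cells could hold at most 1 Xist UMI, fibroblast-like and pericyte-like cells needed 2 or more and at most 9 MPNST markers, and the other classes could hold at most 6 MPNST markers, so the classes were rebuilt here and are not the study's clusters.

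UMIs were summed per tumor and class and tested with edgeR 4.0.16 (R 4.3.3) by the quasi-likelihood method, with filterByExpr, TMM factors and Benjamini-Hochberg adjustment over all genes tested, called at 0.05. Contrasts between classes, the interaction and the comparison of cells with and without Fos had the tumor as a block. Tests needed 20 cells per tumor, and 10 in the added fit of 7 classes. Scripts were tested on simulated data, and DESeq2 1.42.0 was 1 of the alternatives. The files carry no coordinates; promoters came from RefSeq (GRCm38.p6).

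The 9 members and the lists of 34 other early response and 15 heat shock genes were chosen with earlier results of these data known. From the lists, the text names the 3 early response and 2 heat shock genes with the largest absolute log2 difference per comparison among those averaging 20 CPM or more, and the 8 genes outside the members most raised in cells with Fos. Dnajb1, Dusp1 and Hspa1b across tumors were chosen after the values had been seen. The full genotype of the JW23.3 line is not reported here.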

Additional observations from a re-analysis of the deposited data

Results flagged for a closer look

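Ier2 in endothelial-like cells was the only value of a member that stood apart from its own group, among 63 groups of 4 irradiated tumors examined over 9 members and 7 classes. Irradiated 1 had 333.7 CPM and the other 3 irradiated tumors had 162.0 to 177.1 CPM, a gap of 0.912 of the group's range. Chance flags about 1 in 20 such groups, and the comparison of irradiated and control tumors was not tested in this class.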

How the results depend on the processing

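Of 951 recomputed values of the members, 897 kept their direction and their side of the threshold, 8 lost the call, 8 gained it and 38 changed sign. Named genes outside the members were not part of this count. Of 118 recomputed counts, 101 stayed within 1.5 times the reported one.

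Many of the sign changes were estimates for irradiation in MPNST-like cells. The others were irradiation estimates in macrophage-like and T/NK-like cells and contrasts between classes. Leaving out each tumor in turn moved Fos from -1.50 to 0.40, Fosb from -1.40 to 0.38, Jun from -0.78 to 0.44, Junb from -1.16 to 0.52, Jund from -0.91 to 0.086, Egr1 from -0.71 to 0.066, Atf3 from -1.18 to 0.45, Ier2 from -1.01 to 0.16 and Klf6 from -0.70 to 0.23. In macrophage-like cells the ranges were -0.086 to 0.054 for Fos, -0.27 to 0.049 for Jun and -0.15 to 0.12 for Atf3. With the technical set as a term, MPNST-like Fos was 0.064, Fosb 0.18 and Jun 0.11, macrophage-like Fos 0.0071 and T/NK-like Jund 0.036.

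Deviations of same-numbered tumors from their group means had correlations of -0.44 to 0.11. With so few tumors per group and no other pairs correlated beside them, these values cannot decide whether the numbers pair the tumors. With the replicate block, 0 genes were called in each class, with 128, 267 and 287 at an unadjusted p under 0.05, and MPNST-like Fosb was 0.029, Jun 0.092, Junb 0.021 and Atf3 0.017.

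Between classes, no TMM factors gave Ier2 0.073, -0.066 and -0.14 (MPNST-like against macrophage-like, MPNST-like against T/NK-like, macrophage-like against T/NK-like), and Jund -0.30 and Klf6 -0.23 in the last. Ier2 for MPNST-like against T/NK-like cells was -0.019 without a cell filter, -0.090 by DESeq2, -0.12 in the 7-class fit and -0.26 to 0.14 with each tumor left out. Jund for macrophage-like against T/NK-like cells was -0.051 by DESeq2 and -0.062 in the 7-class fit. That fit called 8336 genes between MPNST-like and macrophage-like cells, against 12668, over fewer genes.

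For irradiation, DESeq2 called 1 gene in MPNST-like and 1 in macrophage-like cells. T/NK-like cells gave 108 genes with no low-count filter and 0 to 10 with each tumor left out (10 without irradiated 1). The interaction gave 10 with no low-count filter and 0 to 52 with each tumor left out (52 without irradiated 1). The cause was not tested.

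For cells with and without Fos, thinning to 1000 UMIs called 1572, 536 and 1 genes in MPNST-like, macrophage-like and T/NK-like cells. Splitting macrophage-like cells by Egr1 called 128. T/NK-like cells gave 30 with no low-count filter and 3 to 19 with each tumor left out (19 without control 1). Splitting T/NK-like cells by Egr1 was not run, since no tumor had 20 cells on each side, and irradiation was not tested in endothelial-like, dendritic-like, fibroblast-like and pericyte-like cells, each with under 20 cells in some tumor. Depth limited Egr1 in T/NK-like cells, where it was too low for the test of cells with and without Fos.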
